A study of Homo sapiens with 41 samples.

Results

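The genes described here are 10 members of the S100 family, namely S100A2, S100A4, S100A6, S100A7, S100A8, S100A9, S100A10, S100A11, S100A14 and S100P. They were chosen by name and found among the 58735 genes of the count files through their Ensembl IDs. S100 proteins are small calcium-binding proteins that form dimers and change shape on binding calcium, which lets them attach to cytoskeletal and membrane partners. Some are also released from cells and act on surface receptors such as AGER (the receptor RAGE) and TLR4. Many S100 genes lie close together within the epidermal differentiation complex, and 9 of the 10 members are on chromosome 1, with S100P on chromosome 4. S100A7, S100A8 and S100A9 are known from stressed and inflamed epidermis, S100A2 and S100A14 from epithelia, and S100A4 from mesenchymal cells and fibroblasts.

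RNA was sequenced from HMLE, an immortalised line of human mammary epithelial cells, and from LX-2, an immortalised line of human hepatic stellate cells. The study is about ATF4, a transcription factor of the stress response, and each line carried either shATF4, a hairpin against ATF4, or shCtrl, a control hairpin. HMLE cells with each hairpin were labelled Twist_OE (read here as overexpression of the transcription factor Twist, which drives epithelial cells towards a mesenchymal state), thapsigargin (an inhibitor of the endoplasmic reticulum calcium pump), AA_Dep (read here as amino acid deprivation) or DMSO, the vehicle. LX-2 cells with each hairpin were labelled TGFbeta, thapsigargin, AA_Dep or DMSO. These make 16 groups with 2 samples each. The labels give no dose or duration, name 1 hairpin against ATF4 only, and do not say which Twist gene was used. They also do not say whether the 2 samples of a group came from separate cultures, so p-values measure the spread between these samples, which may be technical.

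Total counts were 15956909 to 23243132 per HMLE library and 14551191 to 18776430 per LX-2 library. The 2 HMLE shATF4 AA_Dep samples hold identical values and were counted as 1 library, which leaves 31 distinct libraries and assumes that the lone library varies like the other groups. The second LX-2 shCtrl thapsigargin library stood apart: 15840 genes had a count in it, while every other library of that line had 22912 to 24255, and its log2 levels correlated with those of its partner at r = 0.9267 across genes, against at least 0.9957 in every other pair. It was left out, and values with all 16 LX-2 libraries stand beside the results they change. ATF4 averaged 102 to 155 CPM (counts scaled to the library total) over the 4 shATF4 groups of HMLE and 297 to 951 CPM over the 4 shCtrl groups, and in LX-2 cells 127 to 238 CPM over the shATF4 groups and 235 to 702 CPM over the shCtrl groups. The 10 epithelial markers, among them CDH1 and EPCAM, went with the labels of the lines. They summed to at most 9.36 CPM in any LX-2 library and to at least 504 CPM in any HMLE library. The 10 mesenchymal or stellate markers overlapped between the lines. They summed to 3694 to 46640 CPM over the LX-2 libraries kept and to 631 to 19890 CPM over the HMLE libraries. DES, a stellate marker, had 0 counts in 11 of the 16 LX-2 libraries.

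The windows of 250 bases before the gene start are shown for 4 of the members with large and differing responses in HMLE cells. S100A7 and S100A8 also had such responses, and their windows are not printed. The windows were read because Twist factors bind E-boxes and ATF4 binds composite elements with C/EBP factors. Sequences are from RefSeq on GRCh38.p14, where all 10 members were found. They run 5′ to 3′ on the strand of the gene, and capitals mark matches, on either strand, to the E-box CANNTG and to the composite element TGATGNAA. S100P lies at chr4:6693628-6693877 on the plus strand, S100A9 at chr1:153357604-153357853 on the plus strand, S100A14 at chr1:153616326-153616575 on the minus strand and S100A4 at chr1:153545807-153546056 on the minus strand.
S100P: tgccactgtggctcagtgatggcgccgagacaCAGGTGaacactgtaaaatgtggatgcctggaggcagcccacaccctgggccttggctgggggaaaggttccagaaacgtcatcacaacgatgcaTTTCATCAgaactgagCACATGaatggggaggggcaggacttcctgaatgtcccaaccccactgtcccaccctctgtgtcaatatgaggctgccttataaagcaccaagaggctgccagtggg
S100A9: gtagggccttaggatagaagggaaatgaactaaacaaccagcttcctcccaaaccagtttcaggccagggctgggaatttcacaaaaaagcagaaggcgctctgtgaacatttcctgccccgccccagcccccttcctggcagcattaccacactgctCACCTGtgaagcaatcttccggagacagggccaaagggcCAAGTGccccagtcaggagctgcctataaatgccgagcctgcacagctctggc
S100A14: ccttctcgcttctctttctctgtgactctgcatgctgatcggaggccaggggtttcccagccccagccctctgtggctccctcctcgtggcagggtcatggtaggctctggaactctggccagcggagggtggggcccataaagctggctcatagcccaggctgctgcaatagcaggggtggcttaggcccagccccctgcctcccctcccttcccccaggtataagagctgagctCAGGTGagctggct
S100A4: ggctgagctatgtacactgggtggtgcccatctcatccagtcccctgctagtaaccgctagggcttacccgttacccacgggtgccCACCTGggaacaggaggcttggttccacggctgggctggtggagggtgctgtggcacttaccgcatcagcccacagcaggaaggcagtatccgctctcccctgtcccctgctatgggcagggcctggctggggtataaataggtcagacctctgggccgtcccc

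The S100P window held the composite element, as TTTCATCA, 123 bases before the gene start, between E-boxes at 218 and 107 bases. S100P alone of the 10 members had that element, which 3.14% of 35116 windows of this length hold. E-boxes were in the windows of 8 members and in 61.8% of all windows. The cAMP response element TGACGTCA was in no member's window and in 1.65% of all windows. The AP-1 element TGANTCA was in 1 window of S100A2, but not in its other window, and in 6.57% of all. These are letter matches and not measured binding sites.

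In HMLE cells with Twist_OE, the change of the members against DMSO differed with the hairpin. No group is labelled as a vector control for Twist_OE, so DMSO cells were the only baseline. Twist and any other difference between Twist_OE and DMSO cells therefore cannot be told apart. In shATF4 cells S100A14, S100A2 and S100P fell against DMSO, and the other 7 members rose, among them the epidermal members S100A7, S100A8 and S100A9. In shCtrl cells S100A14, S100A2 and S100P fell by much more, S100A7, S100A8 and S100A9 fell as well, and S100A4, S100A6 and S100A10 rose. Of the 10 members, 7 rose and 3 fell in shATF4 cells, with 35.3% of all 17940 genes tested past the threshold of 0.05 for the adjusted p in either direction. In shCtrl cells 3 rose and 6 fell, with 57.2% of all genes past the threshold. The median log2 change of the members was 0.57 in shATF4 cells and -1.97 in shCtrl cells, against 0.009 over all genes in shATF4 cells and 0.002 in shCtrl cells. In these bulk samples, fewer cells of a type and less RNA per cell cannot be told apart.

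**Figure D1:**
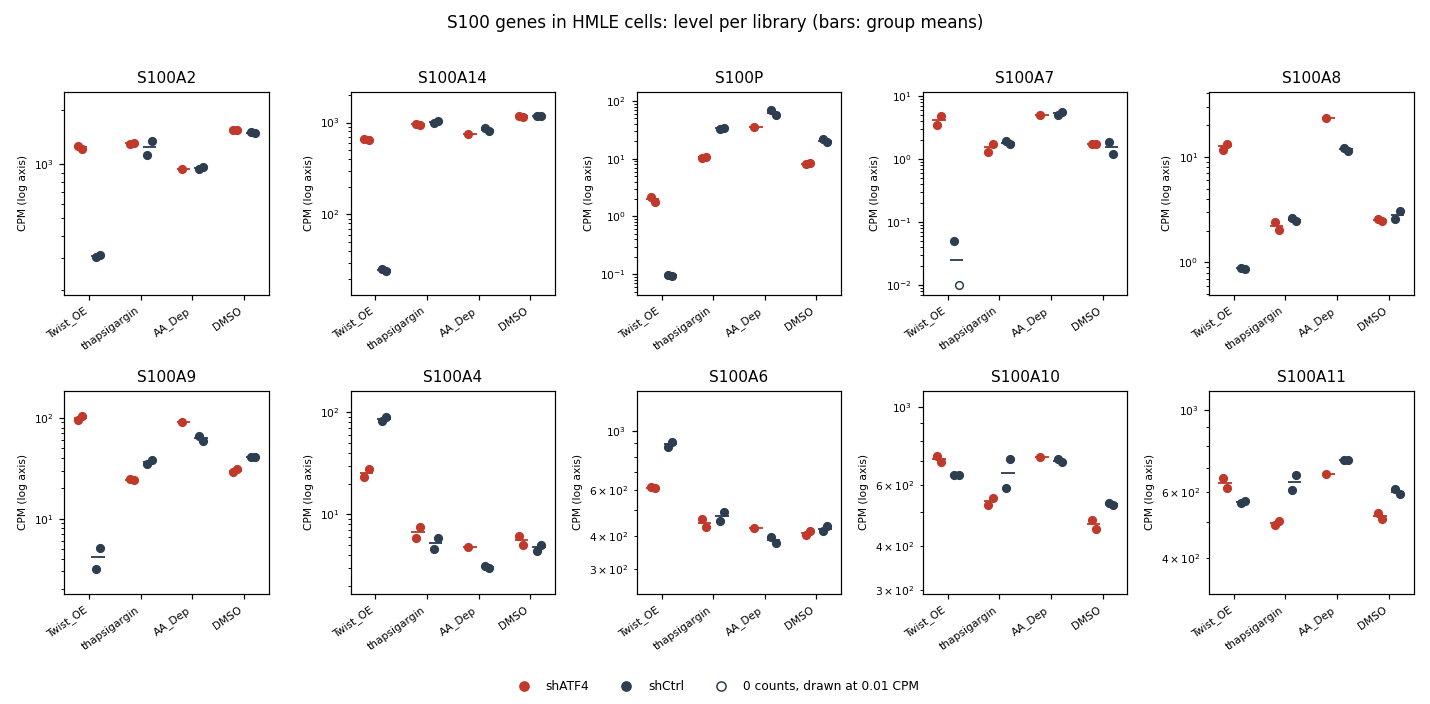
Level of each S100 gene in each HMLE library, in CPM on a log axis, with Twist_OE, thapsigargin and AA_Dep left of DMSO, shATF4 in red left of shCtrl in dark blue, and bars at the group means. In shCtrl Twist_OE cells S100A14 was at 25.6 and 24.3 CPM, while every other library had at least 643 CPM. The open circle marks a library with 0 counts, drawn at 0.01 CPM.

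S100A14, a member found at the membrane of epithelial cells, had 668 and 643 CPM in shATF4 Twist_OE cells, against 1183 and 1150 CPM in shATF4 DMSO cells. In shCtrl cells it had 25.6 and 24.3 CPM with Twist_OE, against 1170 and 1172 CPM with DMSO. With each hairpin the Twist_OE libraries were below the DMSO libraries, the DMSO libraries of the hairpins overlapped, and the shCtrl Twist_OE libraries were far below all others. The log2 change was -0.86 ± 0.05 (SE, adjusted p = 6.1e-11) in shATF4 cells and -5.54 ± 0.06 (adjusted p = 7.2e-22) in shCtrl cells, by edgeR's quasi-likelihood test. The difference of the responses was 4.68 (adjusted p = 7.6e-19). Compared directly in Twist_OE cells, the level of S100A14 was 26.2-fold higher with shATF4 than with shCtrl.

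S100A2, a nuclear member of basal epithelial cells, had 1271 and 1210 CPM in shATF4 Twist_OE cells, against 1551 and 1554 CPM in shATF4 DMSO cells. The shCtrl libraries had 305 and 313 CPM with Twist_OE, against 1511 and 1487 CPM with DMSO. The fall was small in shATF4 cells, at -0.35 ± 0.06 on the log2 scale (adjusted p = 9.9e-05), and large in shCtrl cells, at -2.27 ± 0.06 (adjusted p = 1.9e-16). The responses differed by 1.92 (adjusted p = 1e-12).

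S100P, first described in placenta and a partner of ezrin, was nearly absent from shCtrl Twist_OE cells. It had 2.17 and 1.81 CPM in shATF4 Twist_OE cells, against 8.07 and 8.47 CPM in shATF4 DMSO cells. In shCtrl cells it had 0.0984 and 0.0916 CPM with Twist_OE, which are 2 counts in each library, against 21.7 and 19.3 CPM with DMSO. That is 217-fold lower, with a 95% counting interval of 84.3 to 797. The order of the hairpins turned with Twist_OE: S100P was 20.8-fold higher in shATF4 than in shCtrl cells with Twist_OE (95% counting interval 7.84 to 78.1, adjusted p = 7.1e-08), and lower in shATF4 cells with DMSO.

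S100A9, which pairs with S100A8 as calprotectin, had 95.7 and 103.5 CPM in shATF4 Twist_OE cells, against 28.8 and 31.0 CPM in shATF4 DMSO cells. With shCtrl it had 3.20 and 5.08 CPM with Twist_OE, against 40.5 and 41.0 CPM with DMSO. It rose by 1.71 ± 0.08 on the log2 scale in shATF4 cells (adjusted p = 1.2e-11), whereas its change was -3.28 ± 0.12 in shCtrl cells (adjusted p = 1.5e-14). The responses differed by 4.98 (adjusted p = 2.5e-15). With Twist_OE the level was 23.9-fold higher in shATF4 than in shCtrl cells.

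S100A8, the partner of S100A9, had 11.7 and 13.4 CPM in shATF4 Twist_OE cells, against 2.57 and 2.46 CPM in shATF4 DMSO cells. In shCtrl cells it had 0.886 and 0.870 CPM with Twist_OE, which are 18 and 19 counts, against 2.60 and 3.08 CPM with DMSO. The log2 change was 2.29 ± 0.15 in shATF4 cells (adjusted p = 6e-10) and -1.67 ± 0.22 in shCtrl cells (adjusted p = 2.8e-06), and the responses differed by 3.96 (adjusted p = 6.5e-10). S100A7 (psoriasin) was likewise highest in shATF4 and lowest in shCtrl Twist_OE cells among these groups. It had 3.48 and 4.90 CPM in shATF4 Twist_OE cells, against 1.76 and 1.73 CPM in shATF4 DMSO cells. In shCtrl cells it had 1 count over both Twist_OE libraries, against 1.85 and 1.22 CPM with DMSO. The ratio of shATF4 to shCtrl cells with Twist_OE was 179, with a 95% counting interval of 31.8 to 7120. S100A7 has a near-identical neighbour, S100A7A, so its counts are uncertain.

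S100A8 and S100A9 are abundant in myeloid cells, and the 8 leukocyte markers summed to 1.03 to 6.99 CPM over the HMLE libraries. They summed to 6.87 and 5.59 CPM in shATF4 Twist_OE cells and to 1.03 and 2.70 CPM in shCtrl Twist_OE cells. Most of this came from CD14, which had 5.96 and 5.03 CPM in shATF4 Twist_OE cells and 0.837 and 1.83 CPM in shCtrl Twist_OE cells, and its part in the S100A8 and S100A9 values was not tested. CSF3R had 0 counts in 14 of the 15 HMLE libraries, LYZ in 12, PTPRC in 10, SPI1 in 9, CD68 in 5, ITGAM in 2, FCER1G in 1 and CD14 in none. Apart from CD14, the highest level of any of these was the 0.606 CPM of ITGAM.

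S100A4, also known as fibroblast-specific protein and a partner of non-muscle myosin, went the other way. It had 23.4 and 27.5 CPM in shATF4 Twist_OE cells, against 6.13 and 5.01 CPM in shATF4 DMSO cells. The shCtrl cells had 82.8 and 90.7 CPM with Twist_OE, against 4.41 and 5.04 CPM with DMSO. The rise was 2.16 ± 0.13 on the log2 scale in shATF4 cells (adjusted p = 2.2e-10) and 4.21 ± 0.13 in shCtrl cells (adjusted p = 1.1e-15). The rise was smaller in shATF4 cells by 2.05 (a difference of -2.05, adjusted p = 9.2e-08).

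S100A6 (calcyclin) was also higher with Twist_OE than with DMSO, most so in shCtrl cells. It had 613 and 609.7 CPM in shATF4 Twist_OE cells, against 404 and 416.5 CPM in shATF4 DMSO cells, and 875 and 909 CPM in shCtrl Twist_OE cells, against 417 and 436 CPM in shCtrl DMSO cells. The log2 change was 0.55 ± 0.05 in shATF4 cells (adjusted p = 6.5e-08) and 1.08 ± 0.05 in shCtrl cells (adjusted p = 6.5e-13). S100A10, which binds annexin A2 at the membrane, and S100A11, a partner of annexin A1, moved little. S100A10 rose by 0.59 in shATF4 cells (adjusted p = 5.9e-07) and by 0.29 in shCtrl cells (adjusted p = 0.00063). S100A11 rose by 0.27 in shATF4 cells (adjusted p = 0.00044), and its change in shCtrl cells was -0.08 ± 0.05 (adjusted p = 0.19).

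**Figure D2:**
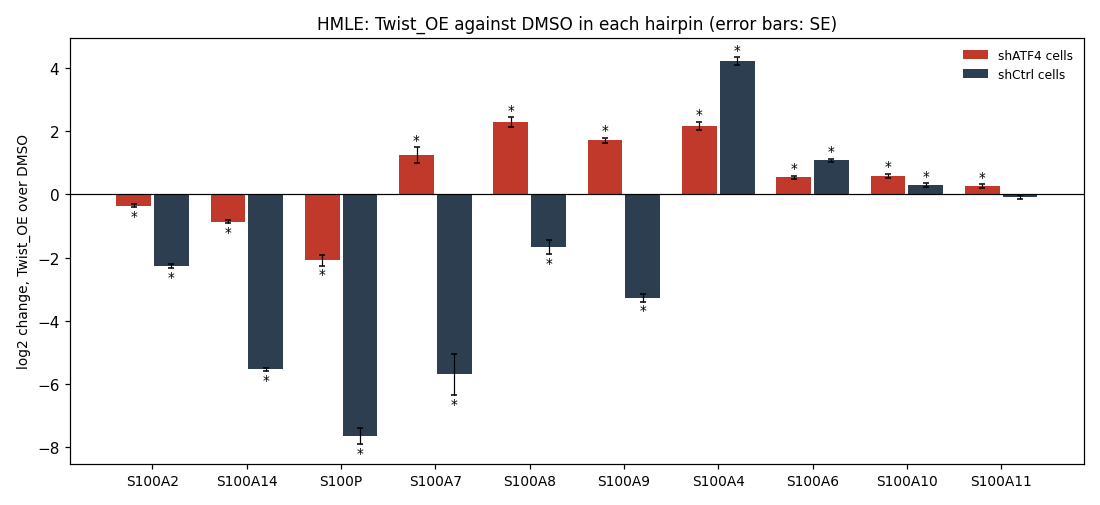
Log2 change of each S100 gene with Twist_OE against DMSO in HMLE cells, with SE bars, shATF4 left of shCtrl, and an asterisk where the adjusted p was under 0.05. S100A7, S100A8 and S100A9 lie above 0 in shATF4 cells and below 0 in shCtrl cells; the shCtrl bar of S100A7 rests on 1 count with Twist_OE.

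All 10 members responded to Twist_OE differently in the 2 hairpins, 8 with a higher and 2 with a lower response in shATF4 cells, while 29.7% of all genes did. For S100A10 the difference of 0.30 (adjusted p = 0.015) lost its call without shATF4 DMSO replicate 2 or without shATF4 Twist_OE replicate 1. Compared directly in Twist_OE cells, 7 members were higher and 2 lower with shATF4 than with shCtrl, with 47.2% of all genes past the threshold. The call of S100A11 there, 0.14 (adjusted p = 0.026), was lost with DESeq2 and without either shATF4 Twist_OE replicate 1 or shCtrl Twist_OE replicate 2.

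The RNA counted for TWIST1 and TWIST2 differed between these cells. Whether these counts include the introduced Twist is not known, since the labels do not name it. TWIST1 had 29.9 and 31.2 CPM in shATF4 Twist_OE cells, against 119 and 137 CPM in shCtrl Twist_OE cells, with means of 12.2 CPM in shATF4 DMSO cells and 16.6 CPM in shCtrl DMSO cells. TWIST2 averaged 6.46 CPM in shATF4 Twist_OE cells, against 20.01 CPM in shCtrl Twist_OE cells, and 2.85 CPM in shATF4 DMSO cells and 3.49 CPM in shCtrl DMSO cells. The epithelial markers summed to 5881 and 5806 CPM in shATF4 Twist_OE cells, against 504 and 518 CPM in shCtrl Twist_OE cells. All 10 of them were lower with Twist_OE in shCtrl cells, and in shATF4 cells 7 were lower and 2 higher. Over all genes 57.2% passed the threshold in either direction in shCtrl cells and 35.3% in shATF4 cells. The mesenchymal markers summed to 4999 and 4294 CPM in shATF4 Twist_OE cells, against 19890 and 16160 CPM in shCtrl Twist_OE cells. FN1 alone reached 16440 CPM among the HMLE libraries, so these sums need not hold for each mesenchymal marker. The part of the TWIST1 level and of the marker shift in the differences between the hairpins was not tested.

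Under AA_Dep, HMLE cells raised the epidermal members and S100P and lowered S100A2 and S100A14, with either hairpin. S100A8 and S100A9 rose more in shATF4 cells than in shCtrl cells. Of the 10 members, 6 rose and 2 fell in shATF4 cells, with 54.1% of all genes past the threshold, and 6 rose and 4 fell in shCtrl cells, with 61.7% of all genes past it. The shATF4 AA_Dep group is 1 library.

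S100A8 had 23.4 CPM in shATF4 AA_Dep cells, against 2.57 and 2.46 CPM in shATF4 DMSO cells, and 12.3 and 11.3 CPM in shCtrl AA_Dep cells, against 2.60 and 3.08 CPM in shCtrl DMSO cells. S100A9 had 90.2 CPM in shATF4 AA_Dep cells, against 28.8 and 31.0 CPM in shATF4 DMSO cells, and 66.1 and 59.2 CPM in shCtrl AA_Dep cells, against 40.5 and 41.0 CPM in shCtrl DMSO cells. Every AA_Dep library was above every DMSO library for both genes, and the shATF4 AA_Dep library was the highest of these. S100A8 rose by 3.13 ± 0.16 on the log2 scale in shATF4 cells (adjusted p = 1.6e-11) and by 1.94 ± 0.15 in shCtrl cells (adjusted p = 1.9e-09). S100A9 rose by 1.51 ± 0.10 in shATF4 cells (adjusted p = 4.1e-10) and by 0.51 ± 0.09 in shCtrl cells (adjusted p = 3.8e-05). These responses differed between the hairpins by 1.2 ± 0.23 for S100A8 (adjusted p = 0.0036) and by 1 ± 0.13 for S100A9 (adjusted p = 7.7e-05). They were the only members with such a difference under AA_Dep, while 5.09% of all genes had one. The leukocyte markers summed to 2.32 CPM in the shATF4 AA_Dep library and to 3.24 and 2.12 CPM in shCtrl AA_Dep cells, against 5.14 and 5.42 CPM in shATF4 DMSO cells and 5.60 and 6.99 CPM in shCtrl DMSO cells.

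S100A7 had 5.08 CPM in shATF4 AA_Dep cells and 5.04 and 5.66 CPM in shCtrl AA_Dep cells, and rose by 1.46 with shATF4 (adjusted p = 0.00041) and 1.67 with shCtrl (adjusted p = 1.3e-05) on the log2 scale. S100A2 had 944 CPM in shATF4 AA_Dep cells and 936 and 961 CPM in shCtrl AA_Dep cells, below the 1487 to 1554 CPM of the 4 DMSO libraries. Its log2 change was -0.80 in shATF4 cells (adjusted p = 3.4e-08) and -0.77 in shCtrl cells (adjusted p = 1.3e-09). S100A14 likewise changed by -0.72 with shATF4 (adjusted p = 9.4e-09) and -0.60 with shCtrl (adjusted p = 2.5e-09). S100A10 and S100A11 rose with both hairpins, by 0.17 to 0.56. The rise of S100A11 in shCtrl cells (0.17, adjusted p = 0.0064) lost its call without shCtrl DMSO replicate 2. S100A4 changed by -0.29 in shATF4 cells (adjusted p = 0.28) and by -0.75 in shCtrl cells (adjusted p = 0.0026), and S100A6 by -0.02 with shATF4 (adjusted p = 0.81) and -0.25 with shCtrl (adjusted p = 0.00022). A difference between the hairpins in these responses did not pass the threshold (0.46 ± 0.30, adjusted p = 0.48 for S100A4, and 0.23 ± 0.08, adjusted p = 0.11 for S100A6). The fall of S100A6 lost its call without shCtrl AA_Dep replicate 2. The mesenchymal markers summed to 6595 CPM in shATF4 AA_Dep cells and 4430 and 5073 CPM in shCtrl AA_Dep cells, against 631 to 786 CPM in the DMSO libraries. A sum follows its most abundant markers, and over the HMLE libraries FN1 had 391 to 16440 CPM and COL1A2 at most 2.26 CPM. The higher sum therefore need not hold for each mesenchymal marker. The epithelial markers were higher too, at 10040 CPM in shATF4 AA_Dep cells, against 6981 and 6816 CPM in shATF4 DMSO cells. In shCtrl cells they summed to 10410 and 10580 CPM with AA_Dep, against 8532 and 8599 CPM with DMSO. The part of these marker shifts in the S100 changes was not tested.

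S100P differed between the hairpins in each HMLE condition. With AA_Dep it had 35.1 CPM in shATF4 cells, against 69.1 and 57.2 CPM in shCtrl cells. With thapsigargin it had 10.4 and 10.7 CPM in shATF4 cells, against 33.0 and 34.4 CPM in shCtrl cells. With DMSO it had 8.07 and 8.47 CPM in shATF4 cells, against 21.7 and 19.3 CPM in shCtrl cells. In these 3 conditions every shATF4 library was below every shCtrl library. The log2 difference between the hairpins was -0.80 ± 0.12 with AA_Dep (adjusted p = 5.8e-05), -1.69 ± 0.10 with thapsigargin (adjusted p = 5.9e-10) and -1.30 ± 0.11 with DMSO (adjusted p = 1.8e-07), and with Twist_OE it was 4.27 ± 0.42. S100P rose under AA_Dep in both hairpins, by 2.00 ± 0.13 in shATF4 cells (adjusted p = 2e-10) and by 1.51 ± 0.09 in shCtrl cells (adjusted p = 8.8e-11). A difference between these rises did not pass the threshold (0.49 ± 0.16, adjusted p = 0.088).

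Of the other members, S100A9 was also lower in shATF4 than in shCtrl cells outside Twist_OE and AA_Dep. It had 24.7 and 24.0 CPM in shATF4 thapsigargin cells, against 34.9 and 38.0 CPM in shCtrl thapsigargin cells, a log2 difference of -0.60 ± 0.09 (adjusted p = 7.4e-05). With DMSO the difference was -0.43 ± 0.09 (adjusted p = 0.0026), a call lost without shATF4 DMSO replicate 1. With AA_Dep it was higher in shATF4 cells, by 0.57 ± 0.10 (adjusted p = 0.00039), as was S100A8, by 1.04 ± 0.15 (adjusted p = 4.4e-05). S100A11 was lower in shATF4 cells with thapsigargin, by -0.38 ± 0.05 (adjusted p = 1.8e-05), and with DMSO, by -0.20 (adjusted p = 0.013), the second of which lost its call without shATF4 DMSO replicate 2 or shCtrl DMSO replicate 1. S100A10 was lower with thapsigargin, by -0.28 (adjusted p = 0.0025), a call lost without shCtrl thapsigargin replicate 2. S100A6 was higher with AA_Dep by 0.19 (adjusted p = 0.039), a call lost without the count filter and without any 1 of the 4 DMSO libraries, either shCtrl AA_Dep library or shCtrl Twist_OE replicate 1. In all, 4 members passed the threshold with AA_Dep (16.9% of all genes), 4 with thapsigargin (24.3%) and 3 with DMSO (12.8%).

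The changes with thapsigargin in HMLE cells were small. S100P rose by 0.37 ± 0.12 in shATF4 cells (adjusted p = 0.023, a call lost with DESeq2 and without any 1 of the 4 libraries compared) and by 0.76 ± 0.10 in shCtrl cells (adjusted p = 3.1e-06). S100A10 rose by 0.24 (adjusted p = 0.0071) in shATF4 cells and by 0.34 (adjusted p = 0.00023) in shCtrl cells. S100A14 changed by -0.27 with shATF4 (adjusted p = 0.00018) and -0.17 with shCtrl (adjusted p = 0.0091), S100A2 by -0.23 with shATF4 (adjusted p = 0.0047) and -0.23 with shCtrl (adjusted p = 0.0041), and S100A6 by 0.14 with shATF4 (adjusted p = 0.032) and 0.20 with shCtrl (adjusted p = 0.0033). In shATF4 cells S100A9 changed by -0.28 (adjusted p = 0.027). The epithelial markers meanwhile summed to 11930 and 11990 CPM in shATF4 thapsigargin cells, against 6981 and 6816 CPM in shATF4 DMSO cells, and to 14230 and 14070 CPM in shCtrl thapsigargin cells, against 8532 and 8599 CPM in shCtrl DMSO cells. Of the 10 markers, 7 rose in shATF4 cells and 9 in shCtrl cells and none fell, and their part in the S100 changes was not tested. Several of these small calls rested on single libraries. In shATF4 cells the call of S100A10 was lost without DMSO or thapsigargin replicate 2, and that of S100A9 without DMSO replicate 2 or either thapsigargin replicate. That of S100A6 was lost with DESeq2, with its size factors in edgeR and without the count filter. It was also lost without 4 different libraries, shCtrl Twist_OE replicate 1 among them. In shCtrl cells the call of S100A2 was lost without thapsigargin replicate 1, that of S100A6 without DMSO replicate 1 or thapsigargin replicate 2, and that of S100A14 without DMSO replicate 2 or thapsigargin replicate 1. In all, 3 members rose and 3 fell in shATF4 cells, with 32.5% of all genes past the threshold, and 3 rose and 2 fell in shCtrl cells, with 36.8% past it. No member's thapsigargin response differed between the hairpins by edgeR or DESeq2, while 2 had an unadjusted p under 0.05 and 4.56% of all genes passed the threshold.

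Over the 8 HMLE groups, the highest group mean was 28.7-fold the lowest for S100A4, 26.6-fold for S100A8, 24.1-fold for S100A9, 46.9-fold for S100A14, 5.02-fold for S100A2 and 2.30-fold for S100A6. S100A10 and S100A11 varied least, at 1.56-fold and 1.48-fold. The shCtrl Twist_OE group was the lowest for S100A2, S100A7, S100A8, S100A9, S100A14 and S100P and the highest for S100A4 and S100A6. For S100A2 the DMSO groups were at the top, with 1552 ± 2.12 CPM in shATF4 cells and 1499 ± 16.97 CPM in shCtrl cells (SD, n = 2 each). Below them the thapsigargin groups and the shATF4 Twist_OE group, at 1240 to 1306 CPM, did not separate beyond the SD of 156 CPM in shCtrl thapsigargin cells. The AA_Dep groups followed at 944 CPM in shATF4 cells and 948 CPM in shCtrl cells. For S100P the order ran from shCtrl AA_Dep (63.1 ± 8.35 CPM) to the shATF4 AA_Dep library (35.1 CPM), shCtrl thapsigargin (33.7 ± 0.983 CPM), shCtrl DMSO (20.5 ± 1.73 CPM), shATF4 thapsigargin (10.5 ± 0.255 CPM), shATF4 DMSO (8.27 ± 0.278 CPM) and the Twist_OE groups, and the shATF4 AA_Dep library was within 2 SD of the shCtrl thapsigargin group.

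In LX-2 cells only S100A2, S100A4, S100A6, S100A10, S100A11 and S100A14 passed the filter on low counts. S100A8 and S100A9 had 0 counts in all 16 libraries, S100A7 had 1 count in 1 library, and S100P had 8 counts over 4 libraries, at most 0.227 CPM. S100A4 and S100A14 were also low: apart from the discordant library, S100A4 had 0.241 to 1.51 CPM and S100A14 at most 0.693 CPM, and neither passed the threshold in any comparison within LX-2. The discordant library had 10.2 and 0.918 CPM of them.

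S100A6 varied most among the LX-2 members, with a 9.63-fold range of group means. With TGFbeta, which activates stellate cells, it had 55.1 and 64.3 CPM in shATF4 cells and 65.9 and 63.3 CPM in shCtrl cells. With thapsigargin it had 321 and 251 CPM in shATF4 cells and 459 CPM in the shCtrl library kept. With AA_Dep it had 603 and 546 CPM in shATF4 cells and 549 and 268 CPM in shCtrl cells. The DMSO libraries were at 166 and 152.5 CPM in shATF4 cells and 141.5 and 175 CPM in shCtrl cells. All TGFbeta libraries were thus below, and all thapsigargin and AA_Dep libraries above, every DMSO library, although the 2 shCtrl AA_Dep libraries lay far apart.

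**Figure D3:**
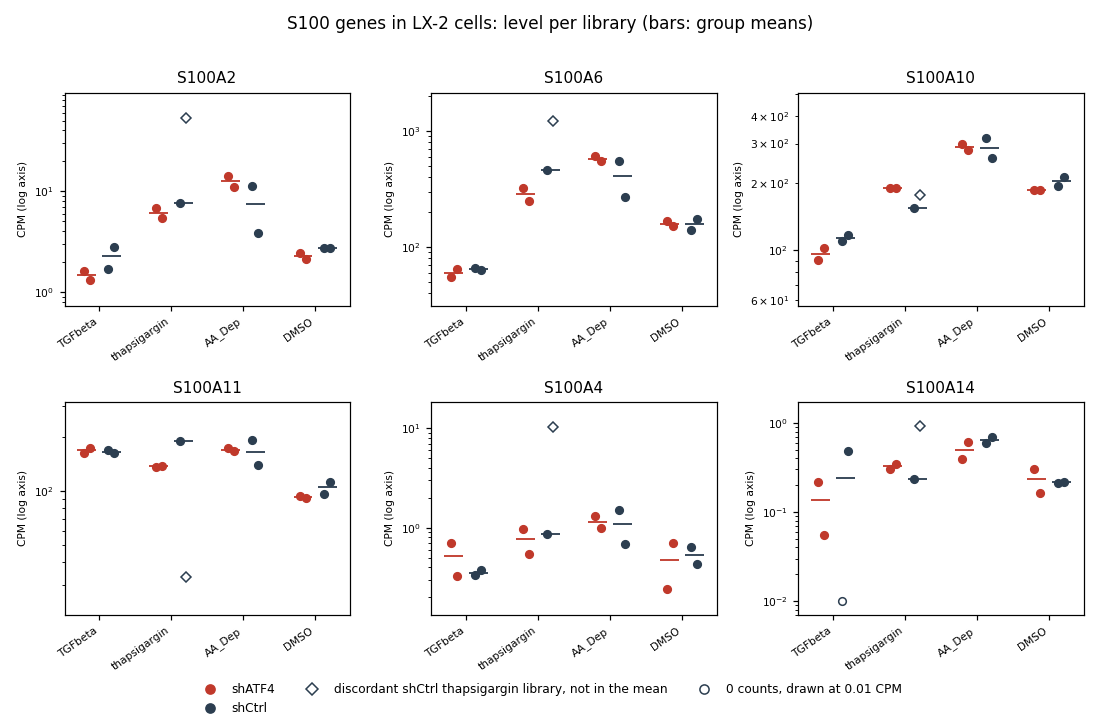
Level of the 6 S100 genes that passed the count filter in each LX-2 library, in CPM on a log axis, with TGFbeta, thapsigargin and AA_Dep left of DMSO, shATF4 in red left of shCtrl in dark blue, and bars at group means. The open diamond is the discordant shCtrl thapsigargin library, which is not in the mean; for S100A6 it stood at 1214 CPM against 459 CPM in its partner.

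S100A6 changed with TGFbeta by -1.29 ± 0.23 on the log2 scale in shATF4 cells (adjusted p = 0.00067) and by -1.16 ± 0.23 in shCtrl cells (adjusted p = 0.0016). S100A10 changed by -0.82 ± 0.10 with shATF4 (adjusted p = 2e-05) and -0.71 ± 0.10 with shCtrl (adjusted p = 6.9e-05): it had 90.5 and 102 CPM in shATF4 TGFbeta cells, against 187 and 185 CPM in shATF4 DMSO cells, and 111 and 117.5 CPM in shCtrl TGFbeta cells, against 194 and 214 CPM in shCtrl DMSO cells. S100A11 went the other way, with 164 and 175 CPM in shATF4 TGFbeta cells, against 93.9 and 91.8 CPM in shATF4 DMSO cells, and 169 and 163.5 CPM in shCtrl TGFbeta cells, against 96.8 and 113 CPM in shCtrl DMSO cells. It rose by 0.99 ± 0.12 with shATF4 (adjusted p = 2e-05) and 0.79 ± 0.12 with shCtrl (adjusted p = 0.00015). In each hairpin 1 member rose and 2 fell of 6 tested, with 27.6% of all 18649 genes past the threshold in shATF4 cells and 22.1% in shCtrl cells. With all 16 LX-2 libraries these values kept their direction and lost their calls, with adjusted p of 0.22 to 0.36 in shATF4 cells and 0.32 to 0.48 in shCtrl cells, and 2.42% and 3.15% of all genes passed the threshold. Of the 9 mesenchymal markers tested, 9 rose with TGFbeta in shATF4 cells and 8 in shCtrl cells.

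Under AA_Dep 4 of the 6 members tested rose in each hairpin and none fell, with 42.4% of all genes past the threshold in shATF4 cells and 45.6% in shCtrl cells. S100A6 rose by 1.76 ± 0.23 in shATF4 cells (adjusted p = 1.6e-05) and by 1.35 ± 0.23 in shCtrl cells (adjusted p = 0.00014). S100A2 was low in this line, with 14.1 and 10.99 CPM in shATF4 AA_Dep cells, against 2.41 and 2.12 CPM in shATF4 DMSO cells, and 11.2 and 3.81 CPM in shCtrl AA_Dep cells, against 2.72 and 2.76 CPM in shCtrl DMSO cells. It rose by 2.38 ± 0.38 with shATF4 (adjusted p = 0.00012) and 1.44 ± 0.37 with shCtrl (adjusted p = 0.005), and the call in shCtrl cells was lost without shCtrl AA_Dep replicate 1. S100A10 rose by 0.55 with shATF4 (adjusted p = 0.00033) and 0.48 with shCtrl (adjusted p = 0.00086), and S100A11 by 0.79 with shATF4 (adjusted p = 8e-05) and 0.64 with shCtrl (adjusted p = 0.00037). With all 16 libraries none of these passed, at adjusted p of 0.085 to 0.3 in shATF4 cells and 0.16 to 0.35 in shCtrl cells, and 8.52% and 13% of all genes did. Of the 9 mesenchymal markers tested, 7 fell with AA_Dep in each hairpin, and the part of such marker shifts in the S100 changes of LX-2 cells was not tested.

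With thapsigargin the shCtrl group was 1 library. S100A2 rose by 1.36 ± 0.40 in shATF4 cells (adjusted p = 0.013), where it had 6.78 and 5.43 CPM, and by 1.37 ± 0.44 in shCtrl cells (adjusted p = 0.021), where it had 7.61 CPM. The call in shATF4 cells was lost without either shATF4 DMSO replicate or without shATF4 thapsigargin replicate 1, and that in shCtrl cells without either shCtrl DMSO replicate or when the fit held no other groups. S100A6 rose by 0.77 ± 0.22 with shATF4 (adjusted p = 0.013) and 1.44 ± 0.26 with shCtrl (adjusted p = 4e-04), and the call in shATF4 cells was lost without shATF4 DMSO replicate 2 or shATF4 thapsigargin replicate 1. S100A11 rose by 0.50 ± 0.12 with shATF4 (adjusted p = 0.0041) and 0.77 ± 0.14 with shCtrl (adjusted p = 0.00046). S100A10 changed by -0.04 in shATF4 cells (adjusted p = 0.81) and by -0.50 ± 0.12 in shCtrl cells (adjusted p = 0.0044). So 3 members rose in shATF4 cells, with 37.1% of all genes past the threshold, and 3 rose and 1 fell in shCtrl cells, with 40.5% past it. Of the 9 mesenchymal markers tested, 8 fell with thapsigargin in shATF4 cells and 9 in shCtrl cells. The discordant library had 1214 CPM of S100A6, 52.7 CPM of S100A2, 177 CPM of S100A10 and 33.3 CPM of S100A11. With it, the shCtrl changes were 3.01 for S100A6 (adjusted p = 0.0047), 4.17 for S100A2 (adjusted p = 0.0087), 0.15 for S100A10 (adjusted p = 0.7) and 0.17 for S100A11 (adjusted p = 0.75). S100A4 then rose by 4.06 (adjusted p = 0.019). In shATF4 cells 0 of 6 members passed with thapsigargin, and 0 had an unadjusted p under 0.05. Over all genes 7.86% then passed with thapsigargin in shATF4 cells and 34.4% in shCtrl cells. For the other shATF4 treatments, 3 members with TGFbeta and 2 with AA_Dep had an unadjusted p under 0.05, and 0 passed.

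Between the hairpins, no member passed the threshold in LX-2 cells in any of 24 tests over 4 conditions, while 4 had an unadjusted p under 0.05 and DESeq2 called 1, S100A11 with thapsigargin (-0.46, adjusted p = 0.044). Over all genes 11.6% passed with DMSO, 21.7% with TGFbeta, 5.2% with thapsigargin and 9.91% with AA_Dep. The count rested on shCtrl AA_Dep, whose 2 libraries lay apart: without its replicate 1, 6 tests passed, with S100A6 1.03 higher (adjusted p = 3.1e-06) and S100A2 1.64 higher (adjusted p = 0.00011) in shATF4 AA_Dep cells and S100A6 different by -0.66 with thapsigargin (adjusted p = 0.00042). Without replicate 2, 4 passed: S100A6, S100A10 and S100A11 with thapsigargin and S100A10 with TGFbeta. No member's treatment response differed between the hairpins in 18 tests (1 with an unadjusted p under 0.05, none by DESeq2), while 0.987%, 6.13% and 10.6% of all genes differed for TGFbeta, thapsigargin and AA_Dep. Without shCtrl AA_Dep replicate 1 there were 5 such calls and without replicate 2 there were 2.

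**Figure D4:**
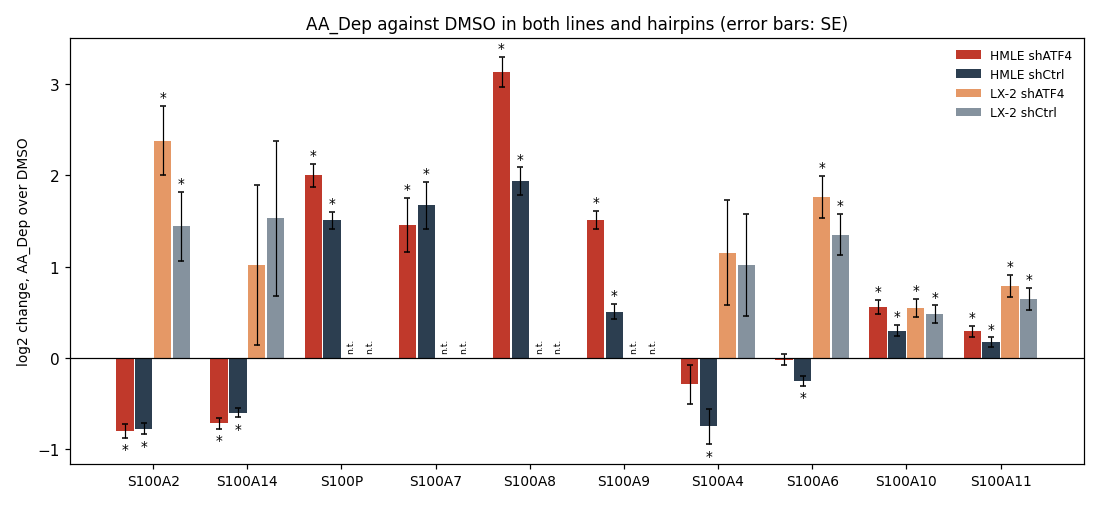
Log2 change of each S100 gene with AA_Dep against DMSO in both lines and hairpins, with SE bars, an asterisk where the adjusted p was under 0.05, and n.t. where a gene was not tested in LX-2. S100A2 lies below 0 in HMLE cells (-0.80 with shATF4 and -0.77 with shCtrl) and above 0 in LX-2 cells (2.38 and 1.44).

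The 2 lines were compared in shCtrl cells. Of the 6 members that passed the count filter in both lines, 6 were higher in HMLE than in LX-2 cells with DMSO, while 34.5% of all 20308 genes were higher there and 70.4% differed either way. S100A7, S100A8, S100A9 and S100P entered the fit of both lines only through HMLE cells, so their direction was fixed by the filter and they are not counted. S100A14 averaged 1171 CPM in HMLE cells and 0.215 CPM in LX-2 cells, a log2 difference of 12.56 ± 0.19 (adjusted p = 2.4e-26). S100A2 averaged 1499 CPM in HMLE cells and 2.74 CPM in LX-2 cells, a difference of 9.28 ± 0.25 (adjusted p = 8.5e-22). S100A9 was at least 505-fold, S100A8 at least 35.1-fold and S100A7 at least 19.3-fold higher in HMLE cells, with 3 counts over the LX-2 group as the floor, and S100P was 382-fold higher (95% counting interval 106 to 3160, on 2 counts in LX-2). The log2 difference was 3.31 for S100A4, 2.71 for S100A11, 1.62 for S100A6 and 1.57 for S100A10.

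With each stress 5 of these 6 members were higher in HMLE cells, where 32.5% of all genes were higher and 66.2% different for thapsigargin, and 33.8% higher and 67.6% different for AA_Dep. The exception was S100A6. With AA_Dep it averaged 387 CPM in HMLE cells and 408 CPM in LX-2 cells. The fitted log2 difference, on TMM-scaled counts, was 0.05 ± 0.18 (adjusted p = 0.83), of the opposite sign to that of the CPM means. It turned on 1 library of LX-2: it was 0.68 without shCtrl AA_Dep replicate 1 (adjusted p = 6.8e-06) and -0.38 without replicate 2 (adjusted p = 0.0025). With thapsigargin it was 0.40 ± 0.22 (adjusted p = 0.1), and -1 (adjusted p = 0.036) with all 16 LX-2 libraries, when 62.2% of all genes differed. This S100A6 difference passed in 4 alternative settings, at -1 to 0.40. In all of them but that with all 16 libraries, S100A6 was higher in HMLE cells, as without the count filter. S100A4 with thapsigargin was 2.92 higher in HMLE cells (adjusted p = 2.2e-07), and -0.33 (adjusted p = 0.68) with all 16 libraries. Its difference with AA_Dep (1.56, adjusted p = 0.00011) lost its call with all 16 libraries (adjusted p = 0.1), when 47.9% of all genes differed.

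The AA_Dep response differed between the lines for 5 of 10 members tested, all lower in HMLE than in LX-2 cells, with 21% of all genes lower and 40.3% different. The 10 include S100A7, S100A8, S100A9 and S100P, which had almost no counts in LX-2 cells. The difference was -2.19 for S100A2 (adjusted p = 7.2e-06), -1.57 for S100A6 (adjusted p = 1.2e-05), -2.10 for S100A14 (adjusted p = 0.0028), -1.75 for S100A4 (adjusted p = 0.0068) and -0.44 for S100A11 (adjusted p = 0.011). With all 16 LX-2 libraries the adjusted p of these 5 differences ranged from 0.07 to 0.61, and 14.5% of all genes differed. The values of S100A14 and S100A4 rest on few LX-2 shCtrl counts. S100A14 had 23 with AA_Dep and 8 with DMSO, and S100A4 had 40 with AA_Dep and 20 with DMSO. The call of S100A4 was also lost without LX-2 shCtrl AA_Dep replicate 1 or LX-2 shCtrl DMSO replicate 2, and that of S100A11 without replicate 1 of HMLE shCtrl DMSO, LX-2 shCtrl AA_Dep or LX-2 shCtrl DMSO. The thapsigargin response differed for 4 of the 10 members, with 27.7% of all genes different: by -1.58 for S100A2 (adjusted p = 0.0028), -1.22 for S100A6 (adjusted p = 0.0013), -0.62 for S100A11 (adjusted p = 0.0027) and 0.86 for S100A10 (adjusted p = 4.1e-05). With all 16 libraries, when 21.6% of all genes differed, that of S100A10 was lost (0.35, adjusted p = 0.39) and that of S100A11 was 0.03 (adjusted p = 1). The calls of S100A2 (-4.19) and S100A6 (-2.63, adjusted p = 0.0036) were kept there. S100A4 passed as well (-3.64, adjusted p = 0.02), against -0.39 (adjusted p = 0.72) without the discordant library.

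Of 11 other S100 genes, 5 passed the count filter in HMLE cells. With Twist_OE, S100A16 changed by -0.46 in shATF4 cells (adjusted p = 2.7e-07) and by -0.76 ± 0.05 in shCtrl cells (adjusted p = 5e-11), and S100A13 by 0.14 with shATF4 (adjusted p = 0.25) and 0.97 ± 0.09 with shCtrl (adjusted p = 1.2e-08). In each hairpin 2 of the 5 rose and 1 fell, beside 35.3% of all genes past the threshold in shATF4 cells and 57.2% in shCtrl cells. In LX-2 cells with AA_Dep 4 of 4 tested rose in shATF4 cells and 3 in shCtrl cells, among them S100A13, by 1.58 with shATF4 (adjusted p = 9.7e-06) and 0.79 with shCtrl (adjusted p = 0.0029), and S100A16, by 1.21 with shATF4 (adjusted p = 3e-07) and 0.62 with shCtrl (adjusted p = 0.00016). Over all genes 42.4% passed the threshold with AA_Dep in shATF4 LX-2 cells and 45.6% in shCtrl LX-2 cells. With TGFbeta none of the 4 passed the threshold in either hairpin, beside 27.6% of all genes in shATF4 cells and 22.1% in shCtrl cells.

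Of 14 receptors and binding partners of S100 proteins, 4 rose and 4 fell with Twist_OE in shATF4 HMLE cells, and 6 rose and 5 fell in shCtrl cells. Over all genes 35.3% passed the threshold in either direction in shATF4 cells and 57.2% in shCtrl cells. TLR4, a receptor of S100A8 and S100A9, rose by 1.97 ± 0.13 in shATF4 cells (adjusted p = 1.2e-09) and by 4.83 ± 0.14 in shCtrl cells (adjusted p = 5.8e-16). So in shATF4 cells the receptor and both ligands rose, and in shCtrl cells the receptor rose while both ligands fell. ANXA6, a membrane-binding annexin, rose by 3.83 with shATF4 (adjusted p = 9.5e-10) and 7.17 with shCtrl (adjusted p = 4.3e-15), and ANXA2, the partner of S100A10, changed by 0.05 with shATF4 (adjusted p = 0.37) and 0.58 with shCtrl (adjusted p = 9.8e-11). With AA_Dep 6 rose and 3 fell in shATF4 cells, beside 54.1% of all genes past the threshold in either direction. In shCtrl cells 7 rose and 4 fell, beside 61.7% of all genes. CACYBP, which binds S100A6, changed by -1.24 ± 0.07 in shATF4 cells (adjusted p = 1.7e-11) and -1.42 ± 0.05 in shCtrl cells (adjusted p = 6e-14), and AGER rose by 1.15 with shATF4 (adjusted p = 0.0034) and 1.14 with shCtrl (adjusted p = 6e-04). In LX-2 cells TGFbeta lowered 5 partners in each hairpin and raised 2 in shATF4 cells and 3 in shCtrl cells. Over all genes 27.6% passed the threshold in either direction in shATF4 cells and 22.1% in shCtrl cells. AHNAK, a scaffold bound by S100A10 with annexin A2, changed by -1.15 ± 0.14 in shATF4 cells (adjusted p = 1.6e-05) and -1.34 ± 0.14 in shCtrl cells (adjusted p = 2.4e-06), and ANXA2 by -0.47 with shATF4 (adjusted p = 3.3e-05) and -0.61 with shCtrl (adjusted p = 1.4e-06), beside the fall of S100A10 itself.

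The epidermal differentiation complex also holds cornified envelope genes, of which 9 of 13 listed passed the count filter in HMLE cells. With Twist_OE 2 rose and 3 fell in shATF4 cells, where 35.3% of all genes passed the threshold in either direction. In shCtrl cells none rose and 6 fell, where 57.2% of all genes passed it. IVL (involucrin) changed by -1.08 in shATF4 cells (adjusted p = 2.2e-05) and -4.59 ± 0.24 in shCtrl cells (adjusted p = 4.6e-12), and SPRR1B, a small proline-rich envelope protein, by -0.99 ± 0.14 with shATF4 (adjusted p = 1.6e-05) and -3.91 ± 0.18 with shCtrl (adjusted p = 5e-13). Neither rose with Twist_OE in shATF4 cells, as S100A7, S100A8 and S100A9 did. With AA_Dep 5 rose in shATF4 cells and 6 in shCtrl cells and none fell. Over all genes 54.1% passed the threshold in either direction with AA_Dep in shATF4 cells and 61.7% in shCtrl cells. SPRR2D rose by 3.71 ± 0.27 in shATF4 cells (adjusted p = 1.3e-09) and 4.45 ± 0.24 in shCtrl cells (adjusted p = 9.3e-12), and IVL by 0.49 with shATF4 (adjusted p = 0.021) and 0.50 with shCtrl (adjusted p = 0.0044).

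The genes whose log2 group means followed a member most closely over the 8 groups of a line were found for the member with the widest range. In HMLE cells these were ADTRP (r = 0.9886), RASAL1 (r = 0.9868) and ENOX2 (r = 0.9858) for S100P. In LX-2 cells they were TNIP2 (r = 0.9958), ENSG00000284976, listed by its ID alone (r = 0.9918), and MCRIP1 (r = 0.991) for S100A6. No member was among the 3 closest genes of another. The groups share libraries, treatments and hairpins, so these values only describe likeness over 8 points.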

How the data were processed

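RNA from 32 samples (RNeasy extraction and SMARTer libraries, per the labels' protocols) had been sequenced, and the authors deposited raw read counts per Ensembl gene. The submitters' processing notes name cutadapt, Bowtie2, STAR, HOMER, featureCounts and DESeq, without versions, and the builds hg19 and hg38, without saying which step used which. Symbols were matched for 58207 of 58735 genes. The 9 ChIP samples were not analysed here. Blank rows at the ends of the files hold no counts.

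CPM is a count scaled to the total of its library. Genes were tested with edgeR 4.0.16 (filterByExpr, TMM scaling, quasi-likelihood F test, R 4.3.3), in 1 fit per line over 15 libraries each and 1 over 30 libraries for both lines. The Benjamini-Hochberg adjustment ran over all genes of a fit, with a threshold of 0.05. An SE is the log2 change divided by the root of F. Counting intervals are exact at 95% and, like floors of 3 counts, cover counting error only. Log CPM for likeness used a prior count of 2. Alternatives were DESeq2 1.42.0, its size factors in edgeR, no count filter, only the compared groups, a replicate block, all 16 LX-2 libraries and leaving out each library. The scripts were tested on simulated data.

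All 10 members are named, with ATF4, TWIST1 and TWIST2 as a check of labels. From each gene list up to 3 called genes could be named, by size of change and with at least 5 CPM, with the same genes' values in the other hairpin beside them. The 3 genes most like a member were named for the member with the widest range in each line. ANXA2, the leukocyte markers with their counts and the members whose windows are printed were chosen after their values were seen. Members and lists were chosen with earlier results of these data known.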

Additional observations from a re-analysis of the deposited data

Results flagged for a closer look

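The response of every member to Twist_OE in HMLE cells differed between the hairpins by the interaction test of edgeR. As shATF4 minus shCtrl on the log2 scale, the difference was 6.94 for S100A7, 5.57 for S100P, 4.98 for S100A9, 4.68 for S100A14, 3.96 for S100A8, 1.92 for S100A2, 0.35 for S100A11 and 0.3 for S100A10. It was -0.53 for S100A6 and -2.05 for S100A4. The value for S100A7 rests on 1 count in shCtrl Twist_OE cells and that for S100P on 4, so their sizes are poorly fixed.

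The AA_Dep response in HMLE cells differed between the hairpins by 1.2 for S100A8 and by 1 for S100A9, with 1 library of shATF4 AA_Dep cells.

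Between the lines, as HMLE minus LX-2 in shCtrl cells, the AA_Dep response differed by -2.19 for S100A2, -2.1 for S100A14, -1.75 for S100A4, -1.57 for S100A6 and -0.44 for S100A11. In LX-2 shCtrl cells S100A14 had 23 counts with AA_Dep and 8 with DMSO, and S100A4 had 40 and 20. The thapsigargin response differed by -1.58 for S100A2, -1.22 for S100A6, -0.62 for S100A11 and 0.86 for S100A10, with 1 LX-2 shCtrl thapsigargin library.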

How the results depend on the processing

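The second LX-2 shCtrl thapsigargin library decided most. With all 16 LX-2 libraries the members called were 0 in place of 10 for the LX-2 treatments in shATF4 cells, 3 in place of 11 in shCtrl cells, and 3 in place of 9 for the responses compared between lines. Signs then turned for S100A4 (-0.33) and S100A6 (-1) as HMLE minus LX-2 with thapsigargin, for the thapsigargin response of S100A11 between the lines (0.03) and for S100A10 with thapsigargin in LX-2 shCtrl cells (0.15). The coefficient of variation fitted over genes was 29.5% with that library and 9.21% without it. For shATF4 against shCtrl in LX-2 cells, where no test passed, DESeq2 called 1 and leaving out the count filter 4, and for the LX-2 responses between hairpins leaving out the filter called 3. The cause was not tested.

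Leaving out 1 library at a time gave 28 to 30 calls between the lines (which include S100A7, S100A8, S100A9 and S100P, whose direction the count filter fixed), 7 to 10 for their responses, 8 to 10 for LX-2 treatments in shATF4 cells and 10 to 11 in shCtrl cells, 0 to 6 between LX-2 hairpins, 0 to 5 for LX-2 responses between hairpins, 20 to 24 for HMLE treatments in shATF4 cells and 22 to 25 in shCtrl cells, 18 to 23 between HMLE hairpins and 11 to 14 for HMLE responses between hairpins. S100A6 with AA_Dep, as HMLE minus LX-2, was -0.38 without LX-2 shCtrl AA_Dep replicate 2 and 0.68 without replicate 1. Over single members, these settings left 3323 values on the same side of the threshold. Of these, the values called in both fits also kept their sign. A further 48 lost a call, 40 gained 1 and 1 turned. Among values called in neither fit, 83 changed sign over all settings.

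Replicate numbers did not pair the samples: over 21 pairs of groups, deviations of same-numbered libraries correlated at -0.173 to 0.144 in LX-2 and -0.0177 to 0.101 in HMLE. With a replicate block the calls were 10 for LX-2 treatments in shATF4 cells and 11 in shCtrl cells, 0 between LX-2 hairpins and 0 for their responses, 24 for HMLE treatments in shATF4 cells and 25 in shCtrl cells, 22 between HMLE hairpins, 12 for their responses, 28 between the lines and 9 for the responses of the lines. Groups of 1 library could not be left out further, and for hairpin comparisons a fit on only the compared groups was not run. Members with few counts, namely S100A7, S100A8, S100A9 and S100P in LX-2 cells, could not be tested at this depth.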
